A study of Mus musculus with 4 samples.

Results

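Transcripts of 9 genes of the insulin-like growth factor (IGF) and insulin pathway were followed in CD8+ T cells of C57BL/6 mice. They comprise the ligand gene *Igf1*, the binding protein genes *Igfbp3*, *Igfbp4* and *Igfbp7*, the receptor genes *Igf1r*, *Igf2r* and *Insr*, and the adaptor genes *Irs1* and *Irs2*. These are 9 of the 19938 genes with a probe set of their own on the arrays. All 9 had a mean over the filter level of 2.59 and were among the 14953 genes tested. Where a gene had several probe sets, the brightest on average stands for it. The genes were chosen with the difference between the cell types on these same arrays known, in particular that of *Igfbp4*. Their levels and differences are therefore a description, and no p-value is given for them.

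Wild-type naive CD8+ T cells from spleen and lymph node, obtained by magnetic negative selection, were cultured for 2 days under 1 of 2 conditions. Tc17 cells, which make IL-17, received IL-2, an antibody against IFN-γ, IL-6 and TGF-β, and CTLs (cytotoxic T lymphocytes) received IL-2 and the antibody against IFN-γ alone. There were 2 arrays per group, labelled as biological replicates, without a statement that they came from separate animals, so that errors and p-values cover no more than the spread between the samples measured. The animals were sex- and age-matched per the study's methods. For mouse Tc17 cultures, the methods add priming with antibodies against CD3 and CD28, which the labels do not mention for these arrays. The study lists the arrays as profiles of Tc17 cells and CTLs.

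IGF1, IGF2 and insulin are related hormones. IGF1 and insulin act through the receptor tyrosine kinases IGF1R and INSR, which phosphorylate adaptors of the IRS family and so engage phosphoinositide 3-kinase and AKT. Binding proteins hold IGFs in the extracellular space and control their access to the receptors, and IGF2R removes IGF2 from the cell surface without signaling as a kinase. In mouse CD4+ T cells, IGF signaling has been described as acting on the balance between type 17 and regulatory cells.

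Values are deposited RMA intensities, which were taken as log2 and whose array medians lay between 3.18 and 3.20. The correlation across the genes tested was 0.993 between the Tc17 arrays and 0.993 between the CTL arrays, against 0.967 to 0.973 between groups. The labelled cell types carried their markers. All 5 genes of a Tc17 list (*Il17a*, *Il17f*, *Rora*, *Il21*, *Ahr*) rose in Tc17 cells, and *Gzmb*, *Ifng* and *Eomes* of 5 CTL genes fell. The other CTL genes were not called, *Tbx21* with a difference of -0.40 and *Prf1* with one of 0.25, both Tc17 arrays of *Prf1* lying above both CTL arrays. Of 7 tested T cell and CD8 genes 5 rose in Tc17 cells, *Cd3e*, *Cd3d*, *Cd3g*, *Cd8a* and *Zap70*, with differences from 0.67 (*Cd8a*) to 1.00 (*Cd3g*). In RNA from whole cultures, a change in the number of cells of a type and a change in RNA per cell cannot be told apart.

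Among the 9 members *Igfbp4* and *Igf1r* were higher in Tc17 cells and the others stayed within 0.25 of the CTL level on the log2 scale. In the limma fit over all genes, these 2 of the 9 passed an adjusted p of 0.05, where 15.7% of all genes tested did. Both were higher, as were 8.22% of all genes, and *Igfbp4* alone was at least 2-fold higher, as were 1.9% of all genes. None was called lower, where 7.44% of all genes were called lower and 1.19% at least 2-fold lower, and none had an unadjusted limma p under 0.05 as lower. A test of each gene on its own spread, without moderation or adjustment, gave 2 members higher and 1 lower (*Igf1*), where it called 16.7% of all genes in either direction. Since the members were chosen on this contrast, nothing is read from these counts. The median log2 difference was 0.05 over the members and 0.02 over all genes tested. The arrays of the groups were apart for 3 members higher in Tc17 cells (29.6% of all genes) and 2 lower (24.8% of all genes), in all 5 of 9 where 54.4% of all genes were, and overlapped for the other 4.

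**Figure D1:**
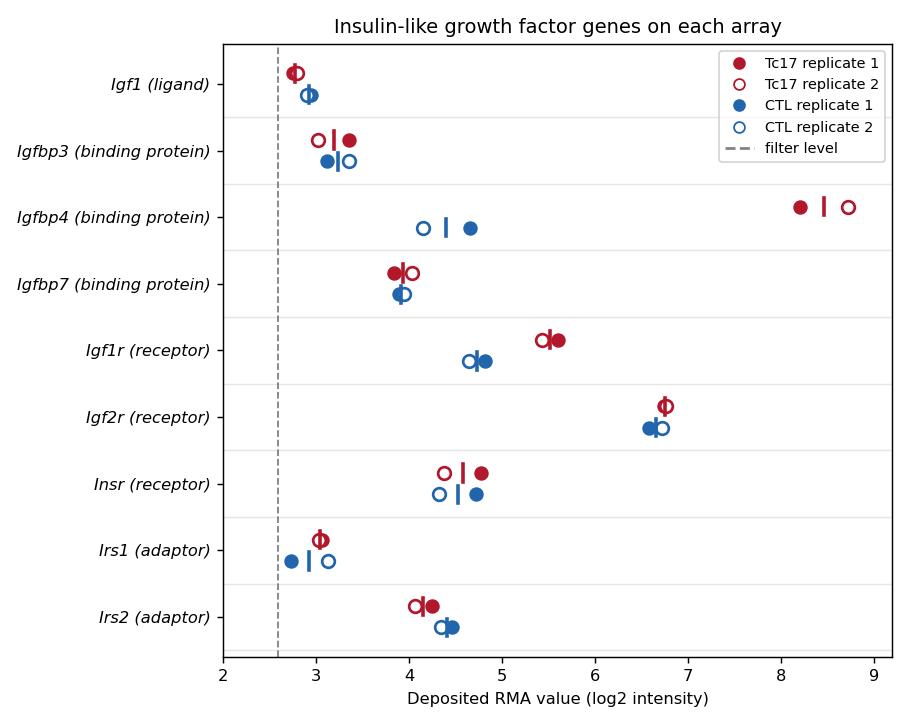
Deposited RMA values (horizontal axis, log2 intensity) of the 9 members, grouped by role. Circles are single arrays, red for Tc17 and blue for CTL, filled for replicate 1 and open for replicate 2, vertical bars are group means, and the dashed line is the filter level of 2.59. The Tc17 arrays of *Igfbp4* lie at 8.21 and 8.72, apart from the CTL arrays at 4.65 and 4.15.

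*Igfbp4* encodes a secreted binding protein that holds IGFs away from their receptor and releases them when it is cleaved by the protease PAPP-A. Its value was 8.21 and 8.72 on the Tc17 arrays, against 4.65 and 4.15 on the CTL arrays. Both Tc17 arrays lay far above both CTL arrays, and the gap between the nearest arrays was 3.55. The means were 8.46 ± 0.37 in Tc17 cells and 4.40 ± 0.35 in CTLs (log2, SD, n = 2 each), a difference of 4.06 ± 0.20 (log2, SE) or 16.7-fold, with a 95% interval of 3.63 to 4.50. The SDs are the gene's own, whereas SEs and intervals, here and below, come from limma. It draws each gene's spread toward a common SD of 0.138, which is lower than the SDs of *Igfbp4*. Its SE and interval are therefore narrower than its own spread alone would give. Taken array against array, the 4 differences ran from 3.55 to 4.57, so that the lowest was still above the difference of any other member. Left out in turn, each of the 4 arrays kept the difference between 3.80 and 4.32. By size of increase *Igfbp4* stood at rank 5 among the 14953 genes tested.

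The promoters of *Igfbp4* and *Igf1r* are shown because these members differed between the groups. The sequences come from RefSeq (build GRCm38.p6) and cover the 250 bases before the annotated start, 5′ to 3′ on the gene's strand. *Igfbp4* lies on the plus strand, at chr11:99040994-99041243, and capitals mark its TATA box letters, whose first base is at -28 from the start. The annotated *Igfbp4* gene begins at chr11:99040005, upstream of this window. The -28 therefore counts from the start used here and not from the first base of the gene.

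Igfbp4: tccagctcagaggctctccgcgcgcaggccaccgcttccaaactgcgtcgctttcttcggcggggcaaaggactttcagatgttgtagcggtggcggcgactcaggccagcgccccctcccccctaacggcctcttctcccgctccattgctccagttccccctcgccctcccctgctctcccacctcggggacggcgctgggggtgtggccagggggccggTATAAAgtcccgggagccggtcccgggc

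The *Igf1r* promoter lies on the plus strand at chr7:67952007-67952256, and none of the motifs searched is marked in it.

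Igf1r: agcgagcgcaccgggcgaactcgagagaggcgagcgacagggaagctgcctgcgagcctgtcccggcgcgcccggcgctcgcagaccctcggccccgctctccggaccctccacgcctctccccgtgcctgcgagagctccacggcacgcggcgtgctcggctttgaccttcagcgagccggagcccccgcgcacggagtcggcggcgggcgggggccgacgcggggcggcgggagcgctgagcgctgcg

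The *Igfbp4* window holds 69.2% G and C with 22 CG pairs, and the *Igf1r* window 77.6% with 42 pairs, against medians of 52.4% and 6 pairs over the 32851 promoters of the table. Windows of *Igfbp3*, *Igfbp7*, *Igf2r*, *Irs1* and *Irs2* held 69.2% to 74.0% with 26 to 34 pairs, and that of *Igf1* 52.8% with 5. A high content was thus shared by members that were not called, and is not particular to *Igfbp4* and *Igf1r*. On both strands and including 50 bases after the start, 4 motifs were searched, namely FOXO (GTAAACA), the SMAD CAGA box (CCAGACA), STAT (TTCCNGGAA) and the AHR response element (TTGCGTG). None of the 8 members with a promoter in the table held 1 of them, while the share of all promoters with the motif was 3.65%, 6.20%, 1.15% and 1.16% in that order. The absence says only that these letters are not in these windows. TATAAA, searched after the sequences had been seen, was in *Igfbp4* alone of the 8 and in 13.6% of all promoters. *Insr* was not in the table.

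*Igf1r* encodes the receptor tyrosine kinase for IGF1 and IGF2. Its value was 5.61 and 5.43 on the Tc17 arrays, against 4.81 and 4.65 on the CTL arrays. The groups did not overlap, with a gap of 0.62 between the nearest arrays. *Igf1r* averaged 5.52 ± 0.13 in Tc17 cells and 4.73 ± 0.12 in CTLs (log2, SD, n = 2 each), a difference of 0.79 ± 0.14 (SE) or 1.73-fold (95% interval 0.49 to 1.08). The differences between single arrays ran from 0.62 to 0.96, and leaving out an array gave 0.70 to 0.88. Its rank by size of increase was 466 of 14953.

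*Insr* encodes the insulin receptor, the closest relative of IGF1R, with which it also forms hybrid receptors. *Insr* was at 4.78 and 4.37 on the Tc17 arrays and at 4.72 and 4.32 on the CTL arrays. Replicate 1 was the higher array in both groups, and the spread within each group was larger than the difference of 0.05 ± 0.17 between them (log2, SE; 95% interval -0.33 to 0.43). A further, slightly dimmer *Insr* probe set gave a difference of -0.06, with values of 4.24 and 4.49 in Tc17 cells and 4.49 and 4.36 in CTLs, so that the replicate order seen in the first probe set did not hold there.

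*Igf2r* encodes the cation-independent mannose 6-phosphate receptor, which clears IGF2 and carries lysosomal enzymes out of the Golgi. Its value was 6.74 and 6.76 on the Tc17 arrays and 6.59 and 6.72 on the CTL arrays. The Tc17 arrays were the higher ones by a gap of 0.02, less than the distance between the CTL arrays. The difference was 0.10 ± 0.13 (log2, SE; 95% interval -0.18 to 0.38), and it ranged from 0.03, when CTL replicate 1 was left out, to 0.16, when CTL replicate 2 was.

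**Figure D2:**
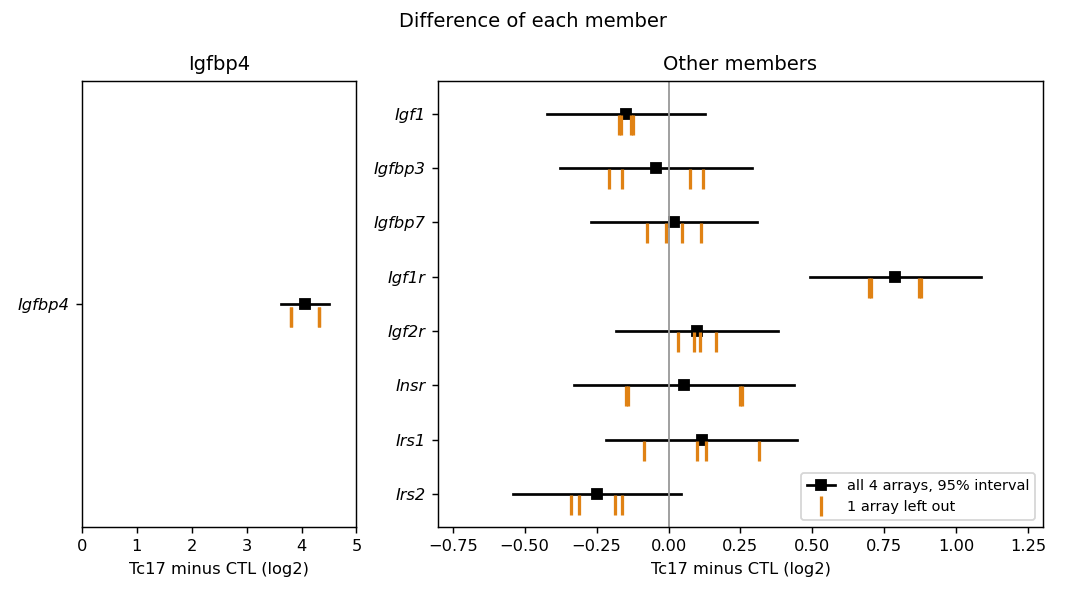
Log2 difference of Tc17 from CTL arrays (horizontal axis) of *Igfbp4* (left, own scale) and the other 8 members (right). Black squares are the estimates from all 4 arrays with their 95% intervals, and orange ticks are the estimates with 1 array left out. The estimate was 4.06 for *Igfbp4* and 0.79 for *Igf1r*. The genes were chosen with this contrast known, so the intervals are a description and not a test against 0.

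The other binding protein genes had differences near 0. *Igfbp3*, which encodes the main carrier of IGFs in the blood, was at 3.35 and 3.02 in Tc17 cells and at 3.11 and 3.35 in CTLs. Its groups overlapped, and the difference was -0.04 ± 0.15 (log2, SE; 95% interval -0.38 to 0.29). The means of *Igfbp3*, 3.19 in Tc17 cells and 3.23 in CTLs, lay close to the array medians, and background compresses differences of dim probe sets. *Igfbp7*, which encodes a related secreted protein of low affinity for IGFs, was at 3.84 and 4.03 in Tc17 cells and at 3.89 and 3.94 in CTLs, both CTL arrays lying between the Tc17 arrays (difference 0.02 ± 0.13, 95% interval -0.27 to 0.31). With an array left out, the differences of *Igfbp3* (-0.21 to 0.12) and *Igfbp7* (-0.08 to 0.11) took either sign, as did that of *Insr* (-0.15 to 0.26).

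The ligand gene *Igf1* was dim, at 2.75 and 2.79 in Tc17 cells and 2.95 and 2.90 in CTLs. Both Tc17 arrays were lower, by a gap of 0.11, and the difference was -0.15 ± 0.13 (log2, SE; 95% interval -0.42 to 0.13). The means of *Igf1* and *Irs1* in both groups lay under the lowest array median of 3.18, where background compresses differences.

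*Irs1* and *Irs2* encode the adaptors that couple the receptors to phosphoinositide 3-kinase, and IRS2 also serves the IL-4 receptor in lymphocytes. *Irs2* was at 4.24 and 4.06 on the Tc17 arrays and at 4.46 and 4.34 on the CTL arrays. Both Tc17 arrays were the lower ones, with a gap of 0.10, and the difference of -0.25 ± 0.13 (log2, SE; 95% interval -0.54 to 0.04) was the lowest among the members. It was -0.34 with Tc17 replicate 1 left out and -0.16 with Tc17 replicate 2 left out. *Irs1* was at 3.06 and 3.03 in Tc17 cells, between the 2.73 and 3.13 of the CTL arrays. Its difference of 0.11 ± 0.15 (95% interval -0.22 to 0.45) turned to -0.08 without CTL replicate 1, and its other probe set lay under the filter level of 2.59 in every array.

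**Figure D3:**
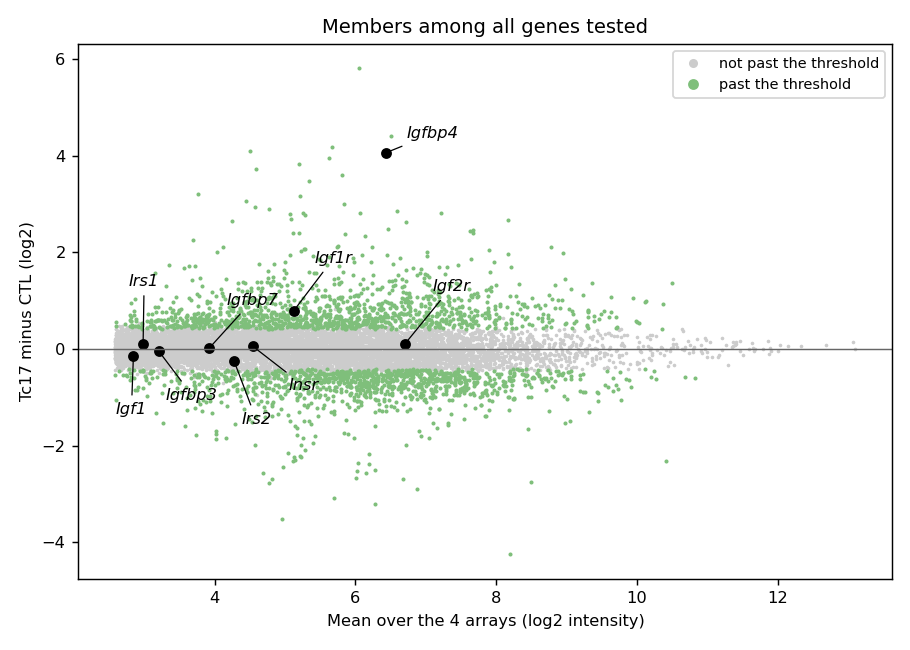
Log2 difference of Tc17 from CTL arrays (vertical axis) against the mean over the 4 arrays (horizontal axis, log2 intensity) of the 14953 genes tested. Green points passed a limma adjusted p of 0.05, grey points did not, and black circles are the 9 members. *Igfbp4* lies near the upper edge at 4.06, *Igf1r* among the green points at 0.79, and the other 7 within the grey band.

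Genes whose pattern over the 4 arrays was most like that of *Igfbp4*, by the Euclidean distance of values centred on each gene's mean, were *Ahr*, the aryl hydrocarbon receptor (distance 0.40), *Itgae*, the integrin chain CD103 (0.48), and *Cd7*, a surface glycoprotein of T cells (0.54). *Ahr* was at 7.55 and 7.65 in Tc17 cells and 3.73 and 3.57 in CTLs. For *Irs2*, the member with the lowest difference, the nearest genes were *Ssb* (0.01), *Plcxd2* (0.02) and *Zbtb21* (0.02), with differences from -0.27 to -0.24. With 4 arrays in 2 groups, such likeness follows mainly from the size of the difference.

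Other genes of the pathway were taken from a list of 40, chosen with earlier results of these data known. Of these, 37 had a probe set of their own and 35 passed the filter. Of the 37, 15 had means under the lowest array median of 3.18 in both groups, where background compresses differences. So had 4 of the 6 genes of binding proteins and their carrier, and 8733 of all 19938 genes. The lack of a call says little about such dim genes. None of the 35 passed the limma adjusted p of 0.05 in either direction, where 8.22% of all genes were called higher and 7.44% lower. At an unadjusted p under 0.05 there were 4 higher and 1 lower in limma, and 2 higher (*Grb2*, *Gga1*) and 0 lower in the test without moderation. Over all genes tested these shares were 27.1% and 16.7%, so that 5 of 35 and 2 of 35 are no larger. The median log2 difference was 0.08, against 0.02 over all genes tested, and the single differences ran from -0.45 (*Stc2*) to 0.41 (*Shc1*). All Tc17 arrays were above all CTL arrays for 12 of the 35 and below them for 3, against 29.6% and 24.8% of all genes.

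Of the ligand genes, *Ins2*, an insulin gene, was at 3.16 and 3.56 in Tc17 cells and 3.15 and 3.09 in CTLs (difference 0.24 ± 0.15, limma adjusted p = 0.370), and the difference was 0.04 without Tc17 replicate 2. Of 6 further genes of binding proteins and their carrier, *Igfbp2* had the smallest p. It was at 3.86 and 4.13 in Tc17 cells and at 3.63 and 3.66 in CTLs (difference 0.35 ± 0.14, limma adjusted p = 0.127), and the difference was 0.21 without Tc17 replicate 2. The other 5 had differences from -0.06 (*Igfbp1*) to 0.12 (*Igfals*, the acid-labile subunit that stabilises IGF complexes in blood).

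Of the genes for proteases that cleave binding proteins and for their inhibitors, *Pappa*, whose product cleaves IGFBP4, was at 2.62 and 2.83 in Tc17 cells and 2.56 and 2.66 in CTLs, near the filter level (difference 0.12 ± 0.13, limma adjusted p = 0.650). *Stc2*, whose product inhibits PAPP-A, was at 4.21 and 3.73 in Tc17 cells and at 4.92 and 3.92 in CTLs, a difference of -0.45 ± 0.27 (limma adjusted p = 0.322) with overlapping groups. The difference rested on CTL replicate 1 and was 0.04 without it. *Adam12*, a metalloprotease gene, had the smallest p of this group (difference 0.25 ± 0.13, limma adjusted p = 0.247, 0.17 without Tc17 replicate 2). *Pappa2* and *Htra1* had means under the filter level. *Pappa*, *Pappa2*, *Stc2* and *Htra1*, like *Igfals*, *Igfbp1*, *Grb2* and *Gga1*, were named after their values were seen.

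Among the other receptors, *Insrr*, the receptor related to INSR that senses alkaline pH, was dim in both groups (difference -0.19 ± 0.14, limma adjusted p = 0.430, -0.07 without CTL replicate 2). The probe set of *M6pr*, which encodes the cation-dependent mannose 6-phosphate receptor, also matches the pseudogene *M6pr-ps* and was not tested. It was at 8.02 and 8.16 in Tc17 cells and 8.45 and 8.28 in CTLs. Of 7 genes of mannose 6-phosphate sorting, the partners of IGF2R, *Gga2* had the smallest p, at 4.24 and 3.98 in Tc17 cells and 4.33 and 4.58 in CTLs (difference -0.34 ± 0.15, limma adjusted p = 0.159, -0.21 without Tc17 replicate 2).

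Among 7 adaptor genes, *Shc1*, which links receptor kinases to RAS, was at 5.70 and 5.54 in Tc17 cells and at 4.92 and 5.50 in CTLs (difference 0.41 ± 0.18, limma adjusted p = 0.168). CTL replicate 1 set this difference, which was 0.12 without it. Without CTL replicate 2, *Shc1* (0.70, limma adjusted p = 0.0187) and *Stc2* (-0.95, limma adjusted p = 0.0117) passed the threshold. *Ptpn1*, whose phosphatase switches off the insulin receptor, was at 8.56 and 8.37 in Tc17 cells and at 8.07 and 8.26 in CTLs (difference 0.31 ± 0.14, limma adjusted p = 0.180). *Igf2bp1*, which encodes a protein that binds *Igf2* mRNA, differed by 0.18 ± 0.18 (limma adjusted p = 0.606), a difference that came from Tc17 replicate 2 and was -0.12 without it.

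**Figure D4:**
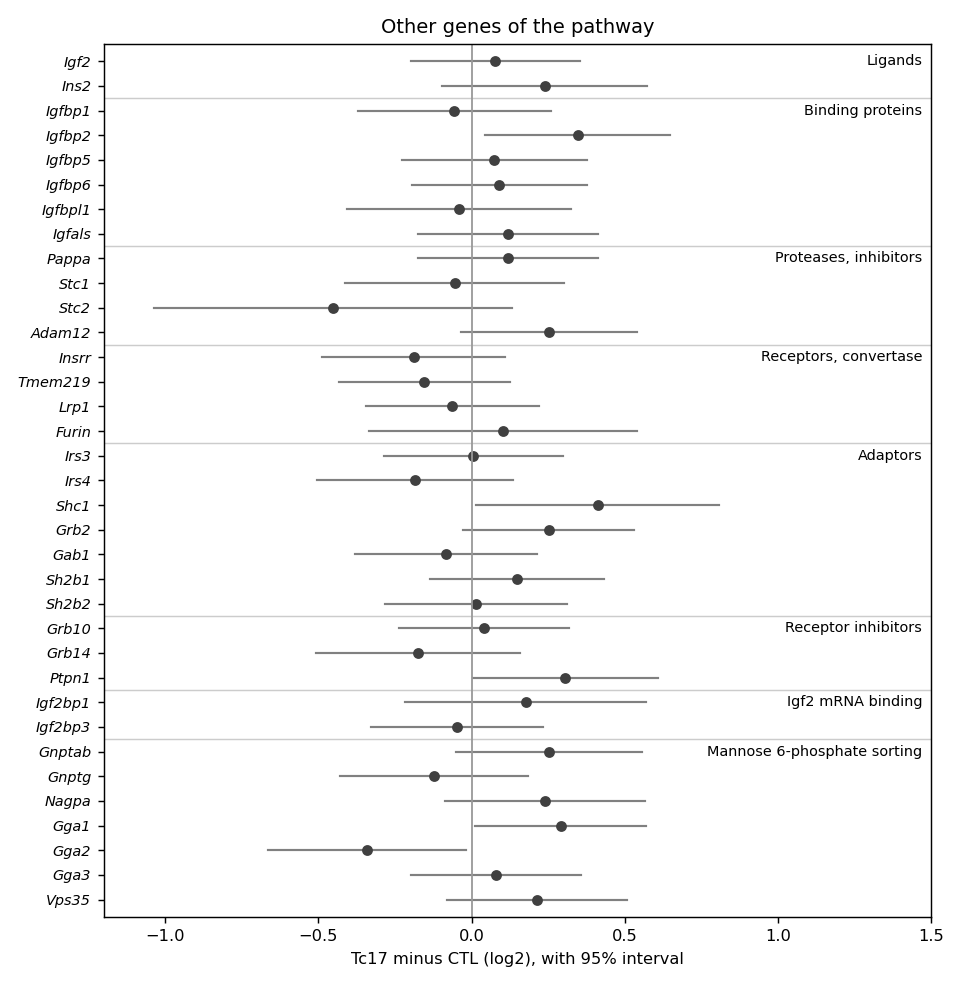
Log2 difference of Tc17 from CTL arrays (horizontal axis) of the 35 tested genes of the wider pathway list, grouped by role. Circles are estimates from all 4 arrays and lines are 95% intervals without adjustment for the number of genes. The estimates lie between -0.45 (*Stc2*) and 0.41 (*Shc1*), and none passed the limma adjusted p of 0.05.

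IGF binding protein transcripts are also made by stromal, endothelial and myeloid cells, whose markers were read on the same arrays. The marker lists were also chosen with earlier results of these data known, so their p-values are a description. Of 8 tested genes of fibroblasts and reticular stroma, 1 rose and none fell. The one that rose was *Pdpn*, which type 17 T cells can also carry (4.92 and 5.44 in Tc17 cells, 3.23 and 2.89 in CTLs, limma adjusted p = 2.30e-05). The linear intensities of the 11 genes on the list summed to 646 and 651 in Tc17 cells and 732 and 618 in CTLs. *Thy1*, a T cell gene as well, made up most of each sum. It was at 9.09 and 9.06 (log2) in Tc17 cells and 9.34 and 9.07 in CTLs. The sums therefore say little about the rest of the list. On the log2 scale the 11 genes averaged 3.58 and 3.67 in Tc17 cells and 3.49 and 3.44 in CTLs. These averages include *Pdpn*, with a difference of 2.12, while the median difference of the 8 tested genes was -0.01. The higher Tc17 averages therefore do not describe the list as a whole. *Dcn*, *Lum* and *Postn* had means under the filter level, and *Col1a1* averaged 4.04 in Tc17 cells and 3.96 in CTLs.

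Of 4 tested endothelial genes 1 rose, *Pecam1* (4.83 and 4.95 in Tc17 cells, 4.33 and 4.31 in CTLs, limma adjusted p = 0.0101). The 8 genes on the list, *Pecam1* among them, summed to 88.4 and 87.6 in Tc17 cells and 82.4 and 79.8 in CTLs. The median log2 difference of the 4 tested genes was -0.09, so the higher sums do not describe the list as a whole. The endothelial markers *Cdh5*, *Kdr*, *Tek* and *Emcn* had means under the filter level. Of 8 tested genes of macrophages, monocytes and dendritic cells 1 rose, *Cd68* (5.32 and 4.89 in Tc17 cells, 4.28 and 3.91 in CTLs, limma adjusted p = 0.00236). The 13 genes, of which *Cd68* was the brightest, summed to 119 and 106 in Tc17 cells and 98.9 and 94.1 in CTLs. The median log2 difference of the 8 tested genes was 0.04, so these sums lean on *Cd68*. *Lyz2*, *Adgre1*, *Cd14*, *Mrc1* and *Cd163* had means under the filter level. The part of other cells in the *Igfbp4* signal was not tested beyond these values.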

How the data were processed

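The deposited values, 1 array for each of 4 samples, are log2 intensities from RMA, a method that subtracts background, quantile-normalises the arrays and reduces probes to probe sets. RMA is named in the submitters' processing notes. For its version, the log base and the genome build, nothing was given in the sources used here, and log2 was taken from the range of 1.18 to 13.7. Quantile normalisation hides a shift of all transcripts, and background compresses the differences of dim probe sets. Precision is limited by the number of arrays. With 2 against 2, the smallest p of an exact permutation test is 0.333.

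A platform annotation paired 21789 of 35557 rows with 1 gene symbol. Each of 19938 genes was read from its brightest probe set, and the 4985 genes with a mean under the 25th percentile (2.59) were left out. The difference of Tc17 from CTL was fitted by lmFit and eBayes (limma 3.58.1 under R 4.3.3), unpaired and two-sided, with Benjamini-Hochberg adjustment over the 14953 genes tested and a threshold of 0.05. Standard errors and 95% intervals are those of the moderated fit, with 8.98 prior and 2 residual degrees of freedom. The fit was also run on 20 simulated sets with 200 genes changed in each. Their errors were independent and their variances were drawn in the form that limma assumes. Such sets check the code and cannot show how the fit behaves on these arrays. Figures were drawn with matplotlib 3.10.9 in Python 3.11.15.

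The members and lists were chosen with earlier results of these data known, so p-values printed for listed genes are a description too. From the wider list each gene past the threshold was to be named and, for a role with none, the gene with the smallest p. Protein sequences were not used here. Alternatives tried were a median filter or none, cyclic loess, median centring, robust moderation along an intensity trend, and averaged probe sets. Others were a fit on all deposited probe sets, a block for the replicate number, stricter thresholds and each array left out. An unpaired t-test, which the study's methods name for comparing 2 groups but not for these arrays, was also tried.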

Additional observations from a re-analysis of the deposited data

How the results depend on the processing

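*Igfbp4* and *Igf1r* were the members past the threshold as higher in Tc17 cells, and no member was past it as lower, with all alternatives but these. When all deposited probe sets were fitted without reduction to genes, 1 member (*Igfbp4*) passed, and 684 probe sets were called (the cause was not tested). The unpaired t-test, which uses the spread of each gene alone, was the other. Without adjustment it gave 1 member lower (*Igf1*) and 2 genes of the wider list higher, with 2498 genes called. After Benjamini-Hochberg it gave 0 members higher and 0 of all genes. With an array left out, a group holds 1 sample that is assumed to vary like the other group. The count of members was then 2 higher and 0 lower, and that of the wider list lay between 0 and 1 higher and between 0 and 1 lower. *Igf2bp1* lay between -0.12 and 0.47. The count over all genes was 2342, against 1421 without Tc17 replicate 2 and 1538 without CTL replicate 1, and 919 at an adjusted p under 0.01 with a log2 difference of at least 0.75. With the replicate number as a block, 2 members were higher and 0 lower, 0 genes of the wider list passed, and 2322 of all genes were called. The deviations of arrays with the same number had a correlation of 0.0195 across genes. With 2 arrays per group, this single value cannot show whether arrays of the same number shared animals, a day or a batch. A filter at the median left 6 of the 9 members and the mean of probe sets left 8.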
